A study of Mus musculus with 9 samples.

Results

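The genes described here form the IL-12, T-bet and interferon-γ axis of the type 1 helper T cell (Th1) programme. They were chosen by name: Il12rb1, Il12rb2, Stat4, Tbx21, Eomes, Ifng, Ifngr1, Ifngr2 and Cxcr3. Each of the 9 had 1 array feature that named it alone, and they are 9 of the 22180 genes with such a feature. RNA was measured in regulatory T cells (Tregs) of C57BL/6 mice, sorted by a red fluorescent protein linked to Foxp3 out of small and large intestinal lamina propria combined. The groups were wild type (WT), Y3 and Y3/CD103-/-, with 3 Affymetrix mouse Gene ST2.0 arrays each. CD103 is the αE integrin chain encoded by Itgae. The labels do not describe Y3, and only the series title links it to IL-2Rβ, the IL-2 receptor's β chain. The labels give no age, sex or treatment of the mice, and no group lacking CD103 alone was analysed here, so CD103 loss was measured on the Y3 background only. Nor do they say whether replicates were separate mice or pools, so p-values measure the spread between these arrays.

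IL-12 binds a receptor of a pair of chains, IL-12Rβ1 and IL-12Rβ2, and activates the transcription factor STAT4. STAT4 and T-bet, the product of Tbx21, drive transcription of Ifng, and T-bet also acts on the chemokine receptor gene Cxcr3. Interferon-γ signals through a receptor of its own with the chains IFN-γR1 and IFN-γR2, and can raise T-bet in turn. Some Tregs use T-bet and CXCR3 to reach and restrain Th1 responses, while high interferon-γ is more typical of effector cells.

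In Y3 Tregs, Il12rb2, Ifng, Cxcr3 and Tbx21 rose against WT, by 4.22-fold, 3.10-fold, 2.14-fold and 2.09-fold. Il12rb2, Ifng and Cxcr3 rose in Y3/CD103-/- Tregs against WT, by 4.43-fold, 2.75-fold and 2.00-fold. None of the 9 genes fell in either comparison, and none passed between Y3/CD103-/- and Y3. The remaining genes, Il12rb1, Stat4, Eomes, Ifngr1 and Ifngr2, did not pass the test in any comparison. A gene was said to rise or fall at an adjusted p under 0.05 in limma, fitted over all 12792 genes tested. In Y3 versus WT 4 of 9 genes passed, where 0.790% of all genes did (0.618% upward and 0.172% downward). For Y3/CD103-/- versus WT 3 of 9 passed, where 0.836% of all genes did (0.555% upward and 0.281% downward). Between Y3/CD103-/- and Y3 0 of 9 passed, by limma, where 0.00782% of all genes did (0% upward and 0.00782% downward), and 0 of 9 had an unadjusted p under 0.05, where 9.90% of all genes did (1.78% upward and 8.12% downward). By the same unadjusted measure, 5 genes were higher and 2 lower in Y3 than in WT, where 17.0% of all genes lay under it (13.4% higher and 3.60% lower). Against WT, Y3/CD103-/- had 5 higher and 1 lower by that measure, where 13.3% of all genes lay under it (7.90% higher and 5.35% lower). Both comparisons with WT use the same WT arrays and are therefore not independent. The 9 genes were chosen with earlier results of these data known, so their counts beside the shares of all genes are a description and not a test. Both counts rest on few arrays. With Y3 array 1 or Y3 array 3 left out, Il12rb2 alone passed in Y3 (1 of 9), where 12 and 8 of all genes did. Il12rb2 also passed alone in Y3/CD103-/- (1 of 9) once WT array 1, WT array 3 or Y3/CD103-/- array 3 was left out. Over all genes, 61, 53 and 28 passed in these refits.

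The regions upstream of the 4 genes that rose in Y3 against WT are shown. RefSeq promoter windows on GRCm38.p6 were matched by symbol for 8 of the 9 genes, with 2 start sites for Stat4. Il12rb1 had no entry. The 250 bases before each start were searched on both strands for TCACACC, a core of T-box sites, for TTCNNNGAA, the form of a STAT site known as GAS, and for the same STAT site with a gap of 4 bases in place of 3. Letters in capitals mark a match.
Il12rb2 upstream region, chr6:67376189-67376438, minus strand: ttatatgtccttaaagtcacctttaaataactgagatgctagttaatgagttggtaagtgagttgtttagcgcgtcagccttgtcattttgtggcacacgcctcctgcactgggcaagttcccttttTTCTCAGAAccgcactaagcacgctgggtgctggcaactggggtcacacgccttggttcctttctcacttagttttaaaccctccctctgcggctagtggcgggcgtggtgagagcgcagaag
Tbx21 upstream region, chr11:97115332-97115581, minus strand: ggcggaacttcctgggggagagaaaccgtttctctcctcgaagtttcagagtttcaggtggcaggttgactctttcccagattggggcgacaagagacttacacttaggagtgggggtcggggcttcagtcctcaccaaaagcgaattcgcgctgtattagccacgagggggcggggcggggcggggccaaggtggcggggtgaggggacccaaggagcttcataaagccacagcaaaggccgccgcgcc
Ifng upstream region, chr10:118440796-118441045, plus strand: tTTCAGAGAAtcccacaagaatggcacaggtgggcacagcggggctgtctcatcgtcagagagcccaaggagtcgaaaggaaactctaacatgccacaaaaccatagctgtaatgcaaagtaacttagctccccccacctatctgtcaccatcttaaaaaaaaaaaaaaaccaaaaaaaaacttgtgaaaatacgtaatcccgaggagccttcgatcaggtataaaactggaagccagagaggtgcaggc
Cxcr3 upstream region, chrX:101734148-101734397, minus strand: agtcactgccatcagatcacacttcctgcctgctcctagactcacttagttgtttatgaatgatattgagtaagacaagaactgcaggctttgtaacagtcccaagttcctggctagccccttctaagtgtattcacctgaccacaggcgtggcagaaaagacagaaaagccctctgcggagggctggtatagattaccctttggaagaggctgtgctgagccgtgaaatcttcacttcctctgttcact
TTCNNNGAA occurred in the windows of Il12rb2, 123 to 115 bases before the start, and of Ifng, 249 to 241 bases before it. It occurred in 7.02% of all 32851 windows of that length. The windows of Tbx21 and Cxcr3 held none of the 3 patterns. Among the windows of the genes that did not pass, the form with the wider gap occurred once, upstream of Ifngr2 as TTCCCGGGAA, against 5.85% of all windows. TCACACC occurred in 0 of the 9 windows and in 3.33% of all. These are matches of letters within a short window and say nothing of binding.

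Beside these genes, the arrays differed in a few respects that hold for all genes. Values are log2 signals with array medians between 3.15 and 3.23. Over all features the SD of the log2 signal was 1.87 for Y3 array 1, 1.88 for Y3 array 3 and no more than 1.77 elsewhere. That pair was the most alike (r = 0.97 across features above the array median on at least 3 arrays). Itgae, the targeted gene, ranged from 7.85 to 8.06 in WT, from 9.11 to 9.51 in Y3 and from 6.05 to 6.86 in Y3/CD103-/- and was lowest on the arrays labelled as lacking it. Foxp3, the defining Treg gene, ranged from 9.29 to 9.68 over all arrays. The median log2 difference over all tested genes was 0.15 in Y3 versus WT, 0.04 in Y3/CD103-/- versus WT and -0.10 in Y3/CD103-/- versus Y3. The 22 falls among the 101 calls in Y3 became 32 of 78 after quantile normalization and 54 of 100 after centring each array on its tested genes.

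**Figure D1:**
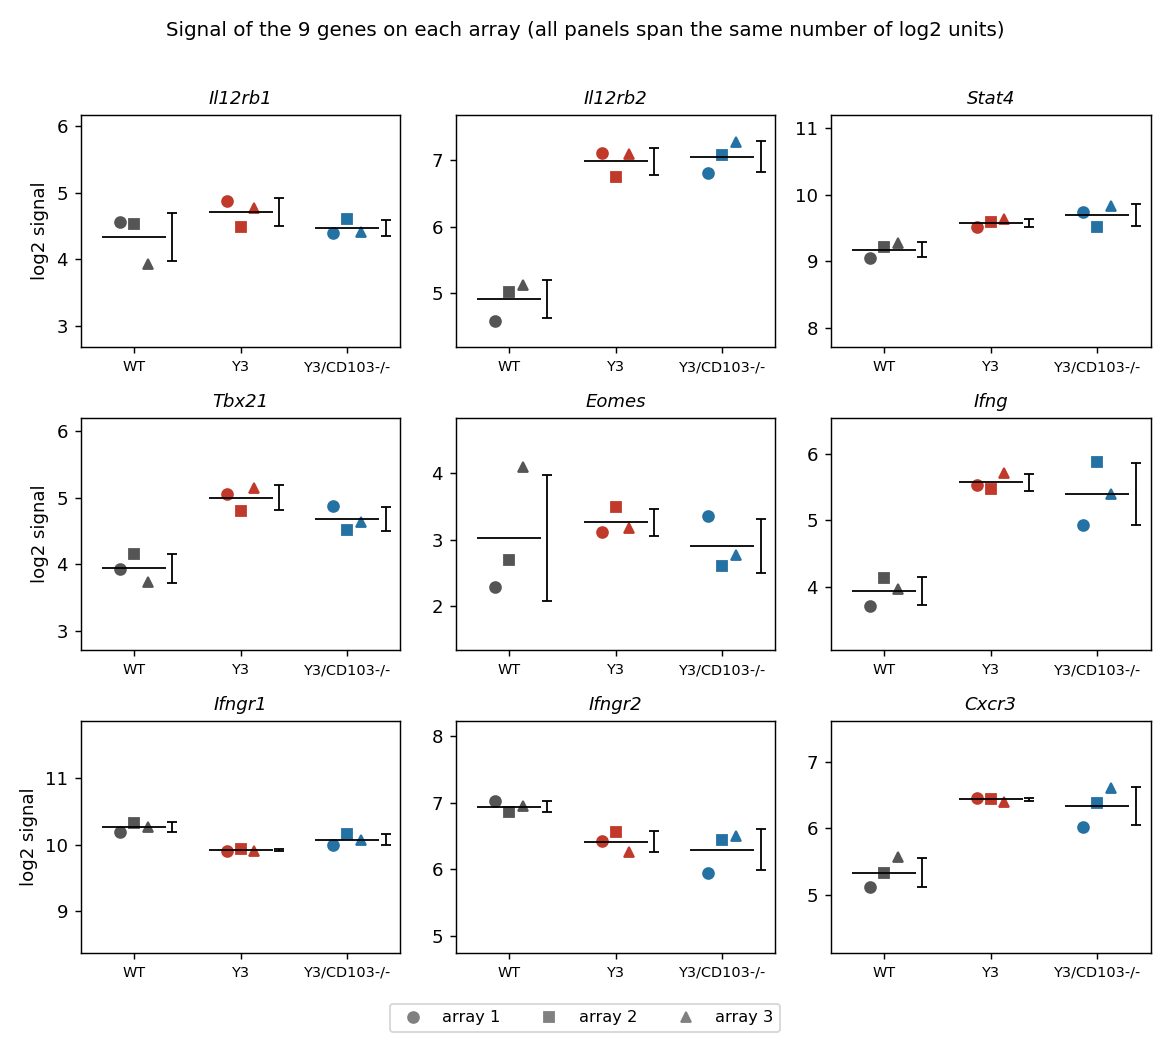
Log2 signal (y axis) of each of the 9 genes on the 3 arrays of each group (x axis). Marker shapes show the array, horizontal lines the group mean, and the bar to the right the SD over 3 arrays. Every panel spans the same number of log2 units. Il12rb2, Tbx21, Ifng and Cxcr3 lie higher on every Y3 and Y3/CD103-/- array than on any WT array, and Eomes overlaps between all groups.

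The chains of the IL-12 receptor were compared first. Il12rb2, which encodes the chain that recruits STAT4, stood at log2 4.58, 5.01 and 5.12 on the WT arrays, 7.10, 6.75 and 7.09 on the Y3 arrays, and 6.81, 7.08 and 7.27 on the Y3/CD103-/- arrays. The lowest array of either Y3 group lay above the highest WT array, and the ranges of Y3 and Y3/CD103-/- overlapped. The rise was 2.08 ± 0.20 log2 (SE) in Y3 (limma adjusted p = 0.00161) and 2.15 ± 0.20 in Y3/CD103-/- (adjusted p = 0.000934), from a WT mean of 4.90 ± 0.29 (SD, n = 3) to 6.98 ± 0.20 and 7.05 ± 0.23. Ranked by p among all tested genes, it was number 4 in Y3 and number 5 in Y3/CD103-/-. Both rises held whichever of the 9 arrays was dropped (adjusted p up to 0.0174 in Y3 and up to 0.00832 in Y3/CD103-/-). With Y3 arrays 1 and 3 both left out, the difference on the single Y3 array left was 1.84, and 1 array has no spread of its own to test it against.

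Il12rb1, which encodes the chain that IL-12 and IL-23 receptors share, stood at 4.55, 4.52 and 3.92 in WT, 4.88, 4.48 and 4.78 in Y3, and 4.39, 4.60 and 4.41 in Y3/CD103-/-. All 3 groups overlapped, and WT array 3 was the lowest of all. Y3 lay 0.38 log2 above WT (limma adjusted p = 0.359, 95% interval -0.06 to 0.82). Y3/CD103-/- lay 0.13 above it (adjusted p = 0.823, interval -0.31 to 0.57). The change in the log2 ratio of Il12rb2 to Il12rb1 within an array was used to compare the chains, since features of different genes share no scale. That ratio ran from 2.22 to 2.32 in Y3 and from 2.42 to 2.86 in Y3/CD103-/-, against 0.03 to 1.20 in WT. The mean ratio was 1.70 log2 higher in Y3 than in WT and 2.01 higher in Y3/CD103-/- than in WT. The ratio was also 0.31 higher in Y3/CD103-/- than in Y3. No pair of groups overlapped, and the 2-sided exact permutation p was 0.1 in all 3 cases, the smallest that 3 against 3 arrays allow. Between Y3/CD103-/- and Y3 neither chain passed by itself (limma adjusted p = 0.935 for Il12rb2 and 0.710 for Il12rb1). Of all single genes 18.6% did not overlap between those groups either, and no such share was worked out for ratios.

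Stat4, the STAT activated by IL-12, stood at 9.04, 9.21 and 9.27 in WT, 9.51, 9.59 and 9.63 in Y3, and 9.75, 9.51 and 9.83 in Y3/CD103-/-. Every Y3 and Y3/CD103-/- array was above every WT array, by a margin small beside that of Il12rb2. Y3 exceeded WT by 0.40 ± 0.15 log2 (limma adjusted p = 0.221, 95% interval 0.07 to 0.74) and Y3/CD103-/- by 0.52 ± 0.15 (adjusted p = 0.159, interval 0.19 to 0.86), so neither passed. With the trend and robust variance model both did (adjusted p = 0.0349 in Y3 and 0.00662 in Y3/CD103-/-).

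Among the T-box transcription factors, Tbx21 stood at 3.93, 4.15 and 3.72 in WT, 5.06, 4.79 and 5.15 in Y3, and 4.88, 4.52 and 4.64 in Y3/CD103-/-. The WT arrays lay below all others, and the ranges of Y3 and Y3/CD103-/- overlapped through Y3 array 2. Tbx21 rose by 1.07 ± 0.18 log2 in Y3 (limma adjusted p = 0.0238). Its difference in Y3/CD103-/- was 0.75 ± 0.18 (1.68-fold, adjusted p = 0.0881) and did not pass. Between Y3/CD103-/- and Y3 the difference was -0.32 (95% interval -0.71 to 0.07, adjusted p = 0.561), so the gene is not shown to differ between these groups. The call in Y3 versus WT was lost when WT array 3 (adjusted p = 0.0694), Y3 array 1 (0.124) or Y3 array 3 (0.148) was left out. It was also lost with no filter on dim genes (0.0531), with the replicate block (0.0576) and with Y3 arrays 1 and 3 averaged (0.139), and the call in Y3/CD103-/- was gained with the strictest filter (0.0425).

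Eomes, the related T-box factor of cytotoxic and memory cells, stood at 2.29, 2.69 and 4.09 in WT, 3.12, 3.50 and 3.17 in Y3, and 3.36, 2.60 and 2.76 in Y3/CD103-/-. It was above the median of its array on 1 array of each group, which is the least that the filter on dim genes lets through. WT array 3 stood apart from the other WT arrays and was the highest of all. Against WT, Eomes differed by 0.24 log2 in Y3 (limma adjusted p = 0.784, 95% interval -0.62 to 1.10). The difference of -0.12 in Y3/CD103-/- had an interval of -0.98 to 0.74 (adjusted p = 0.931). The first interval takes in a difference as large as the rise of Tbx21 and does not show that Eomes was unaltered.

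Ifng, the cytokine gene, stood at 3.72, 4.14 and 3.96 in WT, 5.53, 5.47 and 5.72 in Y3, and 4.93, 5.87 and 5.40 in Y3/CD103-/-. All Y3 and Y3/CD103-/- arrays were above all WT arrays. The Y3/CD103-/- arrays were spread more widely (SD 0.47) than the Y3 arrays (SD 0.13) and lay on both sides of them. The rise was 1.63 ± 0.23 log2 in Y3 (limma adjusted p = 0.0119) and 1.46 ± 0.23 in Y3/CD103-/- (adjusted p = 0.0197). The call in Y3 was lost when Y3 array 1 (adjusted p = 0.0815) or Y3 array 3 (0.0942) was left out, or both were averaged (0.0839). The call in Y3/CD103-/- was lost when WT array 1 (0.0603), WT array 3 (0.0515) or Y3/CD103-/- array 3 (0.0756) was left out, or only the 2 groups were fitted (0.0918).

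The chains of the interferon-γ receptor lay the other way. Ifngr2, the chain that completes the signalling complex, stood at 7.02, 6.86 and 6.95 in WT, 6.42, 6.57 and 6.25 in Y3, and 5.95, 6.44 and 6.50 in Y3/CD103-/-. Every WT array was above every other array. Relative to WT, Y3 stood at -0.53 ± 0.18 log2 (limma adjusted p = 0.191, 95% interval -0.93 to -0.13) and Y3/CD103-/- at -0.65 ± 0.18 (adjusted p = 0.142, interval -1.04 to -0.25), and neither passed. With the trend and robust variance model the difference in Y3/CD103-/- did (adjusted p = 0.0398).

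Ifngr1, the ligand-binding chain, stood at 10.19, 10.33 and 10.27 in WT, 9.91, 9.94 and 9.91 in Y3, and 10.00, 10.16 and 10.07 in Y3/CD103-/-. WT was the highest group, Y3 the lowest and Y3/CD103-/- between them, with no overlap between any pair of groups. Relative to WT, Y3 stood at -0.35 ± 0.14 log2 (limma adjusted p = 0.240, 95% interval -0.65 to -0.04) and Y3/CD103-/- at -0.19 ± 0.14 (adjusted p = 0.608). Y3/CD103-/- stood 0.16 ± 0.14 above Y3 (adjusted p = 0.721, interval -0.14 to 0.46), and none of these passed. With the trend and robust variance model the difference in Y3 did (adjusted p = 0.0211).

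Cxcr3, the receptor of the interferon-induced chemokines CXCL9, CXCL10 and CXCL11, stood at 5.12, 5.32 and 5.56 in WT, 6.45, 6.45 and 6.40 in Y3, and 6.03, 6.38 and 6.60 in Y3/CD103-/-. All Y3 and Y3/CD103-/- arrays were above all WT arrays, and the Y3 arrays lay within the range of Y3/CD103-/-. The rise was 1.10 ± 0.18 log2 in Y3 (limma adjusted p = 0.0246) and 1.00 ± 0.18 in Y3/CD103-/- (adjusted p = 0.0347). The call in Y3 was lost when any Y3 array was left out (adjusted p = 0.124, 0.0796 and 0.128 for arrays 1, 2 and 3), or WT array 1 (0.0572) or 2 (0.0698), and also after quantile normalization (0.0574) centring on the tested genes (0.0522), no filter on dim genes (0.0531) or averaging of Y3 arrays 1 and 3 (0.127). The call in Y3/CD103-/- held in 1 of the 9 refits that drop an array, the one lacking Y3/CD103-/- array 1, and the other 8 gave an adjusted p from 0.0506 to 0.127. It was also lost with no filter (0.0752), with only the 2 groups fitted (0.143), with the replicate block (0.0533) and with Y3 arrays 1 and 3 averaged (0.0680).

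**Figure D2:**
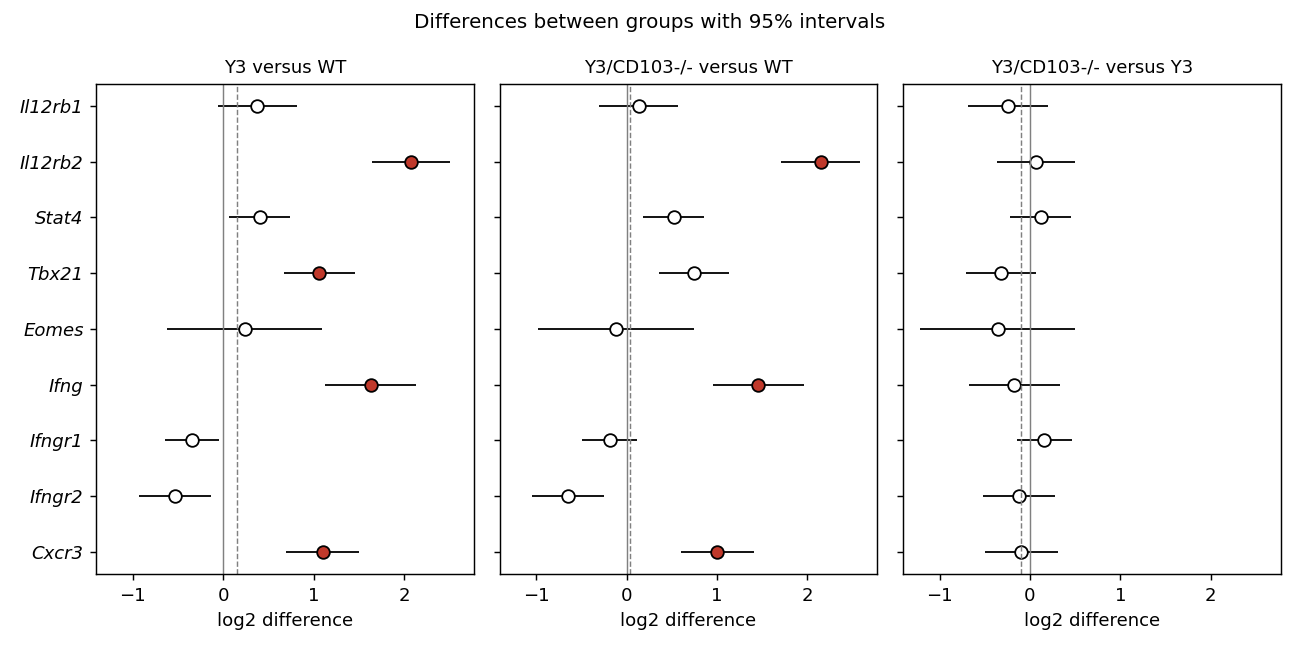
Log2 difference (x axis) of each gene (y axis) in the 3 comparisons, with 95% intervals from limma. Filled points passed an adjusted p under 0.05, the solid line is 0, and the dashed line is the median difference of all tested genes. Il12rb2 has the largest difference among the 9 genes in both comparisons with WT, at 2.08 and 2.15, and every interval of Y3/CD103-/- versus Y3 includes 0.

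Across the 9 genes, 7 were higher and 2 lower in Y3 than in WT, with a median log2 difference of 0.40 against 0.15 for all tested genes. Groups did not overlap for 5 genes upward and 2 downward in Y3 versus WT, where 23.9% of all genes did not (19.0% upward and 4.93% downward). For Y3/CD103-/- versus WT the same 5 and 2 did not overlap, where 17.4% of all genes did not (10.7% and 6.68%). For Y3/CD103-/- versus Y3 it was Ifngr1 alone, upward, where 18.6% of all genes did not overlap (4.11% upward and 14.4% downward). Relative to the shift of all genes, the rises in Y3 were 1.93 log2 for Il12rb2, 1.48 for Ifng, 0.95 for Cxcr3 and 0.92 for Tbx21, while Ifngr1 and Ifngr2 stood at -0.49 and -0.68. Of the 9, 6 were higher and 3 lower in Y3/CD103-/- than in WT, with a median of 0.52 against 0.04. Between Y3/CD103-/- and Y3, 3 were higher and 6 lower, with a median of -0.12 against -0.10 for all genes. The 95% intervals of that last comparison, which cover the spread between these arrays alone, ran from -0.37 to 0.50 log2 for Il12rb2, from -0.68 to 0.33 for Ifng, from -0.50 to 0.31 for Cxcr3 and, the widest, from -1.21 to 0.50 for Eomes. Centring each array on its tested genes moved the difference of Il12rb2 there from 0.07 to 0.22 and that of Cxcr3 from -0.10 to 0.0523.

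The genes of most similar pattern were sought by the root-mean-square log2 distance over the 9 arrays after centring each gene. For Il12rb2 they were Nkg7, a membrane protein of cytotoxic granules (distance 0.18), the chemokine gene Ccl5 (0.20), C2cd4b (0.30), Zc3h12c, a ribonuclease of the regnase family (0.30), and the IL-18 receptor gene Il18rap (0.31). For Ifng they were Ppm1d (0.24), Cysltr2, a leukotriene receptor (0.25), C2cd4b (0.27), Thap6 (0.27) and Ccl5 (0.28). For Cxcr3 they were Plcb4 (0.14), Zc3h12d, another regnase family gene (0.15), Themis, a T cell signalling protein (0.15), Susd2 (0.16) and Arrdc4 (0.16). For Tbx21 they were Hectd2 (0.11), B4galnt4 (0.12), Plcxd2 (0.12), Socs3, a feedback inhibitor of cytokine signalling (0.14), and Jkamp (0.14). C2cd4b and Ccl5 were near both Il12rb2 and Ifng. A smaller distance also comes with a smaller change, so distances are not compared between these lists of neighbours.

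Other genes of the pathway were taken from 7 lists by role, with 74 genes in all, of which 62 were tested. The lists were chosen with earlier results of these data known. Their counts beside the shares of all genes are therefore a description and not a test. In Y3 versus WT 8 rose and 1 fell, where 0.618% of all tested genes rose and 0.172% fell. Against WT, 6 rose and 1 fell in Y3/CD103-/-, where 0.555% of all rose and 0.281% fell. By limma 0 passed between Y3/CD103-/- and Y3. With 1 array left out, the count in Y3 became 2 up and 0 down for Y3 array 3 and 3 and 0 for Y3 array 1. It became 5 and 0 for Y3 array 2, WT array 2 or WT array 3. Over all genes, 8, 12, 41, 45 and 64 passed in these refits, in that order. The count in Y3/CD103-/- became 4 up and 0 down for Y3/CD103-/- array 3, where 28 of all genes passed. Other settings raised the counts, and those over all genes too. The trend and robust variance model gave 15 up and 3 down in Y3 (268 and 78 over all 12792 genes). In Y3/CD103-/- it gave 9 and 2 (212 and 97 over all genes). The strictest filter on dim genes gave 10 and 2 in Y3 (174 and 48 of 8826 genes) and 9 and 3 in Y3/CD103-/- (148 and 67). The median log2 difference was 0.17 in Y3 and 0.16 in Y3/CD103-/-, against 0.15 and 0.04 for all tested genes.

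Of the IL-12 family ligands, Il12b, the subunit that IL-12 and IL-23 share, and Il18 were above the array median on 0 of 9 arrays, and 3 of the 6 genes were tested with none passing. Il27 had a mean of 4.92 ± 0.62 (SD, n = 3) in WT and 5.73 ± 0.24 in Y3 (difference 0.82, limma adjusted p = 0.221). Among 6 partner and costimulating receptors, both chains of the IL-18 receptor, which acts with IL-12 to induce interferon-γ, rose. Il18rap rose by 1.58 ± 0.19 log2 in Y3 (limma adjusted p = 0.00739) and 1.62 ± 0.19 in Y3/CD103-/- (adjusted p = 0.00450). Il18r1 rose by 1.28 ± 0.19 in each (adjusted p = 0.0124 and 0.0129). Il6st, which encodes gp130, fell by 0.88 in Y3/CD103-/- (adjusted p = 0.0447), a call that held in 1 of the 9 refits that drop an array (up to 0.147). The call of Il18rap in Y3 was lost when Y3 array 3 was left out (0.0523), that of Il18r1 in Y3 when Y3 array 1 or 3 was (up to 0.0995), and that of Il18r1 in Y3/CD103-/- when Y3/CD103-/- array 3 was (0.0692).

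Of the kinases, STATs and inhibitors, 8 of 9 were tested. Jak2 and Tyk2, the kinases of the IL-12 receptor, differed by 0.20 and 0.35 log2 in Y3 (limma adjusted p = 0.494 and 0.436). Socs3, an inhibitor, rose by 0.91 in Y3 (adjusted p = 0.0392) and Stat3 by 0.74 in Y3/CD103-/- (adjusted p = 0.0447), and both calls were lost with any 1 of the 9 arrays left out (up to 0.204 and 0.139). Socs1, the inhibitor of interferon-γ signalling, differed by 0.87 in Y3 (adjusted p = 0.0555). Of 10 tested transcription factors that act with T-bet, Runx3, a partner of T-bet at Ifng, rose by 0.83 in Y3 (adjusted p = 0.0455). That call was lost with any 1 array left out (up to 0.221) and under quantile normalization (0.0759), and the call of Socs3 was lost under the latter too (0.0643).

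Of 18 interferon-γ response genes tested, 0 rose and 0 fell in either comparison with WT by limma. Over all genes 0.790% passed in Y3 and 0.836% in Y3/CD103-/-, so 0 of 18 is near that share and does not set this list apart. In Y3 15 were higher and in Y3/CD103-/- 12, with medians of 0.16 and 0.10 against 0.15 and 0.04 for all tested genes. Iigp1, an immunity-related GTPase, differed by 0.97 ± 0.25 log2 in Y3 (limma adjusted p = 0.1001) and Psmb10, an immunoproteasome subunit, by 0.60 ± 0.16 (adjusted p = 0.112). Irf8, an interferon regulatory factor, lay the other way, with -0.27 ± 0.15 in Y3 (adjusted p = 0.399) and -0.77 ± 0.15 in Y3/CD103-/- (adjusted p = 0.0518). Of 11 other Th1 effector and surface genes tested, 4 rose and 1 fell in Y3, and 3 rose in Y3/CD103-/-. Nkg7 rose by 2.03 and 1.93 and Ccl5 by 1.91 and 1.80 in Y3 and Y3/CD103-/-, and both held whichever of the 9 arrays was dropped. Gzmb, which encodes granzyme B, rose by 0.89 in Y3 and 1.07 in Y3/CD103-/-, and the call in Y3 held in 5 of the 9 refits that drop an array (up to 0.135). Xcl1, a chemokine, rose by 1.97 in Y3 (adjusted p = 0.0119) and its call was lost with any 1 of the Y3 arrays left out (up to 0.0850). Its difference was 1.26 in Y3/CD103-/- (adjusted p = 0.0669) and -0.70 between Y3/CD103-/- and Y3 (adjusted p = 0.455). Ccl3, a chemokine also made by myeloid cells, fell by 1.61 in Y3 (adjusted p = 0.0393) a call that held in 3 of the 9 refits that drop an array (up to 0.173).

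Of 6 opposing lineage genes tested, 0 passed in limma, where 0.790% of all genes passed in Y3 and 0.836% in Y3/CD103-/-. Against WT, 5 were higher in Y3 and 4 in Y3/CD103-/-. Their median differences were 0.29 and 0.14, against 0.15 and 0.04 for all tested genes. Gata3, the master factor of type 2 helper cells, had the smallest p, with a difference of -0.69 ± 0.14 log2 in Y3 (limma adjusted p = 0.0551) and -0.60 ± 0.14 in Y3/CD103-/- (adjusted p = 0.0847). Il17f, a cytokine of type 17 helper cells, differed by 1.17 ± 0.35 in Y3 (adjusted p = 0.144). Bcl6, the factor of follicular helper cells, differed by 0.11 in Y3 (adjusted p = 0.771).

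**Figure D3:**
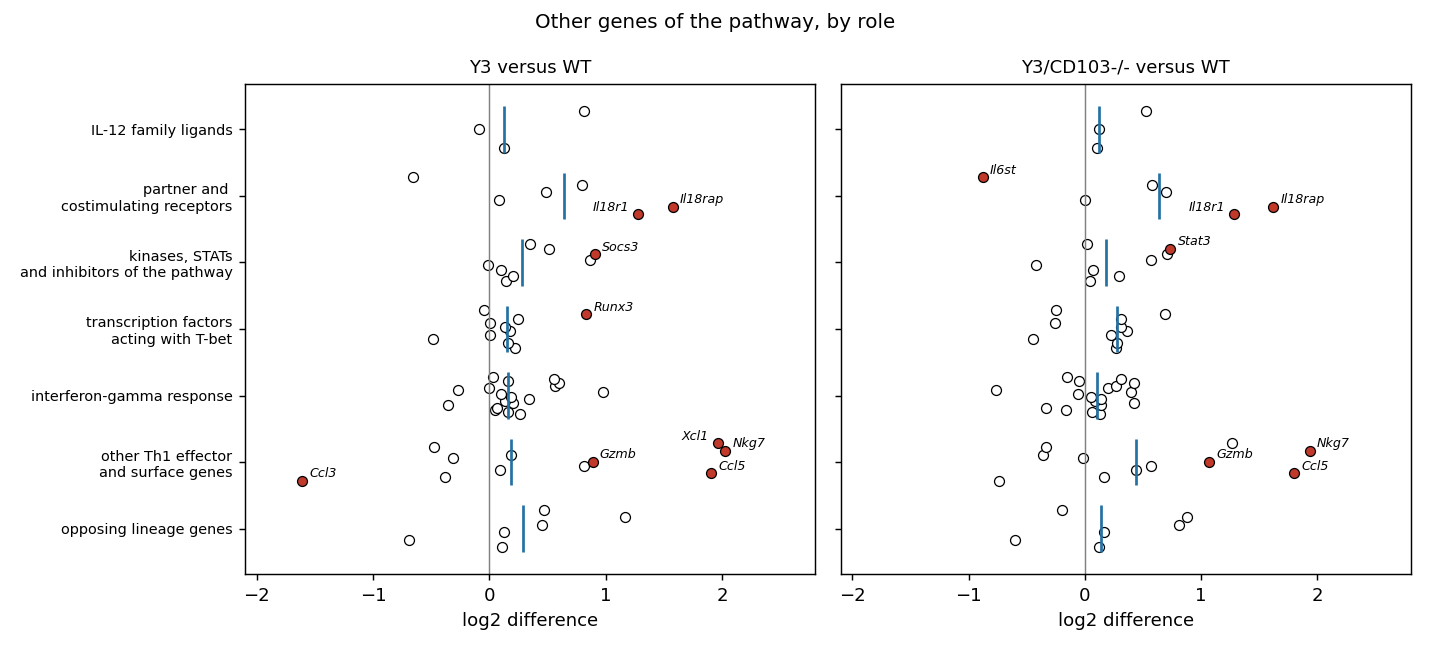
Log2 difference from WT (x axis) of each tested gene of the 7 lists (y axis) in Y3 (left) and Y3/CD103-/- (right). Filled, named points passed an adjusted p under 0.05 in limma and blue bars are list medians. The rises are in the receptor, effector and regulator lists. Of the interferon-γ response genes 0 of 18 are filled, where 0.790% of all tested genes passed in Y3 and 0.836% in Y3/CD103-/-.

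Markers of other cells that could carry these transcripts were measured on the same arrays, and in a bulk sort fewer cells of a type and less RNA per cell cannot be told apart. Of 12 markers of CD8, NK and ILC1 cells, which also make interferon-γ and use T-bet, 8 were tested. The mean log2 signal of all 12 ran from 3.70 to 3.98 in WT, from 3.83 to 3.98 in Y3 and from 3.85 to 4.17 in Y3/CD103-/-. Of the 8 tested 4 were higher in Y3 than in WT, so the mean joins differences of both directions. Xcl1 was the 1 marker of these that passed, and Klrd1, Klrk1 and Klre1 were above the array median on 0 of 9 arrays. Cd8a stood at 3.05, 3.18 and 3.47 in WT, Y3 and Y3/CD103-/-, near the array medians. Gzmk and Prf1 differed by 0.95 and 0.81 in Y3 (limma adjusted p = 0.118 and 0.214) and Cd8b1 by -0.25 (0.714). Tyrobp and Fcer1g, signalling adaptors of NK and myeloid cells, differed by -1.09 and -0.87 in Y3 (adjusted p = 0.168 and 0.167). The part of these cells in the rises of Il12rb2, Ifng, Tbx21 and Cxcr3 was not tested.

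Marker lists of non-lymphoid cells had lower means in Y3. The mean of 8 epithelial markers ran from 5.49 to 6.68 in WT, from 4.22 to 4.70 in Y3 and from 4.12 to 5.98 in Y3/CD103-/-, with 0 of 8 passing. The mean of 9 macrophage and dendritic cell markers ran from 4.08 to 4.71 in WT, from 3.87 to 4.04 in Y3 and from 4.32 to 4.44 in Y3/CD103-/-. Of 7 tested, H2-Aa, a class II antigen presentation gene, fell by 1.80 log2 in Y3 (limma adjusted p = 0.0264) and differed by -0.55 in Y3/CD103-/- (0.483). Of the same 7, 1 was higher in Y3, the lysosomal gene Cd68. It differed by 0.77 in Y3 (adjusted p = 0.0721) and 0.74 in Y3/CD103-/- (0.0801). Cd14 was above the array median on 0 of 9 arrays. Beside these markers, Ifngr2 stood at -0.53 log2 from WT in Y3 and at -0.65 in Y3/CD103-/-. In Y3/CD103-/- the macrophage and dendritic cell list lay within the WT range, while 0 of 8 epithelial markers were higher than in WT (median -0.70 log2). The part of either list in the differences of Ifngr2 was not tested. The mean of 3 B and plasma cell markers ran from 3.68 to 4.16 in WT, from 3.19 to 3.55 in Y3 and from 3.75 to 4.09 in Y3/CD103-/-. That of 2 γδ T cell markers ran from 3.42 to 3.68, from 3.54 to 3.61 and from 2.65 to 3.83. The mean of 6 Treg and CD4 T cell markers ran from 9.24 to 9.31 in WT, from 9.23 to 9.26 in Y3 and from 9.16 to 9.28 in Y3/CD103-/-. Of these, Il2ra, the α chain of the IL-2 receptor, fell by 0.86 log2 in Y3/CD103-/- (limma adjusted p = 0.0258). It differed by -0.65 in Y3 (adjusted p = 0.0790) and by -0.22 between Y3/CD103-/- and Y3 (0.644). The calls of H2-Aa and Il2ra were not checked with arrays left out.

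**Figure D4:**
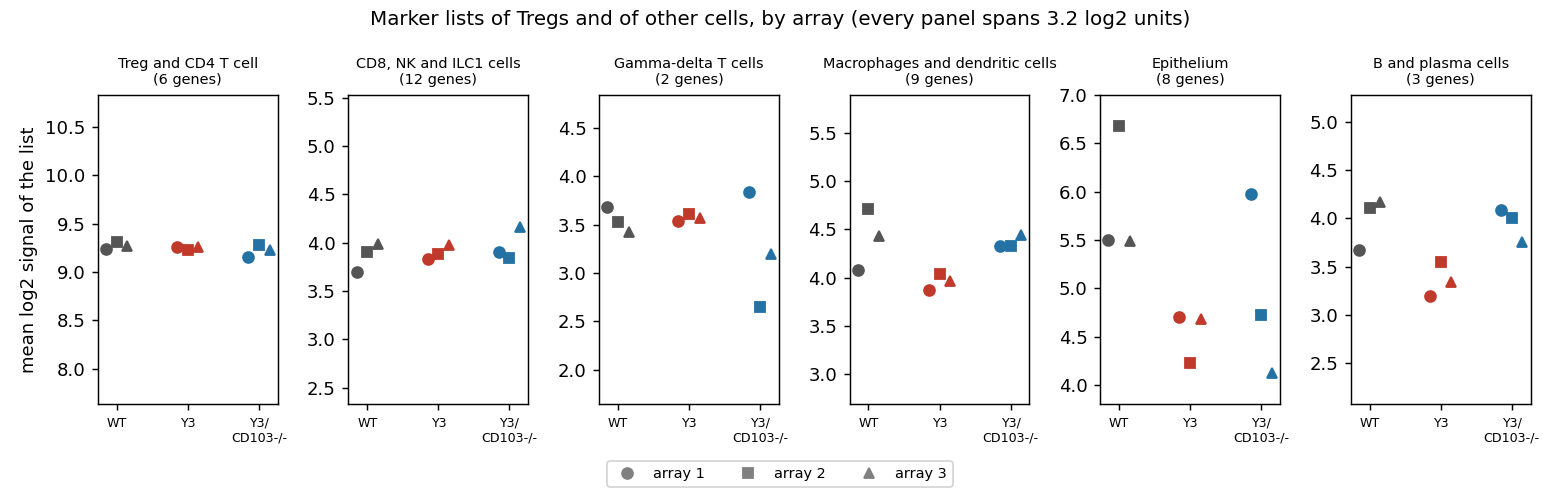
Mean log2 signal (y axis) of each marker list on each array, by group (x axis), in panels of equal span. The means of the Treg and of the CD8, NK and ILC1 lists overlap between groups, though single markers of the latter differ in both directions. The epithelial list lies lower on the 3 Y3 arrays, at 4.22 to 4.70, than on the WT arrays, at 5.49 to 6.68.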

How the data were processed

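Gene expression was measured on 9 Affymetrix arrays, 3 each for WT, Y3 and Y3/CD103-/-. The deposited values are log2 signals; the submitters' processing notes name RMA as the method. The version and settings of RMA were not given in the sources used here. That the scale is log2 follows from the range of the deposited values (0.11 to 14.05). Of 39137 features, 23521 name 1 gene, 1814 several and 13802 none in the platform annotation; the brightest of a gene's own features was kept. Genes above the median of their array on at least 3 of 9 arrays were tested (12792; 9388 were removed), and all 9 members passed. Group means were fitted over all arrays with limma 3.58.1 in R 4.3.3 (lmFit and eBayes, no block, 2-sided). Benjamini-Hochberg adjustment ran over all tested genes within each of 3 comparisons, with a threshold of 0.05. The fit was tested on simulated data.

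The members, lists, tests and naming rule were chosen with earlier results of these data known. All 9 members are described; list genes were named where they passed in a comparison with WT, or by smallest p in Y3 versus WT in their list, and a few others (Il12b, Il18, Jak2, Tyk2, Bcl6, Irf8 and markers) were named for their role or after their values were seen. Patterns most like a member's were the 5 nearest genes, leaving out predicted genes. Alternatives changed the filter, features per gene, scaling, variance model, weights, arrays in the fit, replicate block and threshold, and left out each array. Promoter windows are from RefSeq (GRCm38.p6). No column was left unmapped.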

Additional observations from a re-analysis of the deposited data

How the results depend on the processing

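Of the 7 rises called among the 9 genes in the comparisons with WT, all kept their direction in each of 147 refits (21 for each) and 107 of these passed. Direction was fixed in advance in many of them. Changing the filter, variance model, block or arrays outside the comparison left the difference as it was. Dropping an array could not turn it either, since the groups did not overlap. The 20 differences not called passed in 5 of 417. The count of genes called in Y3 versus WT, 4, became 6 with the trend and robust variance model, 2 with no filter on dim genes, 1 with Y3 arrays 1 and 3 averaged, 0 with both left out (chosen after seeing the data; the lone Y3 array is assumed to vary like the other groups, and 1 of all 12792 genes passed) and 1 to 4 with 1 array left out. The count in Y3/CD103-/- versus WT, 3, became 5 with the trend and robust variance model, 1 with only the 2 groups compared, 1 without Y3 arrays 1 and 3, and 1 to 3 with 1 array left out. Over all genes the counts of 101, 107 and 1 ran from 1 to 346, from 17 to 309 and from 0 to 10. In Y3 versus WT, 346 of all genes passed with the trend and robust variance model and 12 with Y3 arrays 1 and 3 averaged. With no filter on dim genes 52 of 22180 did. In Y3/CD103-/- versus WT, 309 passed with the trend and robust variance model and 17 with only the 2 groups compared. Deviations of same-numbered arrays correlated at -0.04 to 0.11 across genes and those of other pairs at -0.14 to 0.07. These ranges overlapped, so a pairing by replicate number was neither shown nor excluded. With the replicate number as a block, 3, 2 and 0 of the 9 genes passed (54, 55 and 1 of all genes).

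Signs turned only for differences that were not called. With 1 array left out, Eomes ran from -0.13 to 0.77 log2 in Y3 and from -0.48 to 0.42 in Y3/CD103-/- versus WT (0.42 without WT array 3, 0.0372 without Y3/CD103-/- array 2), and Il12rb1 from -0.0715 to 0.24 in the latter. In Y3/CD103-/- versus Y3, Il12rb2 ran from -0.0491 (without Y3 array 2) to 0.19 (and -0.0399 without Y3/CD103-/- array 3), Ifng from -0.41 to 0.0615, Ifngr2 from -0.22 to 0.0560 and Cxcr3 from -0.23 to 0.0587. There, quantile normalization gave Ifngr2 0.0064 and Cxcr3 0.0217, and centring on the tested genes (chosen after seeing the data) 0.0306 and 0.0523. The cause was not tested. Eomes had no value with the strictest filter, which removed it. The number of arrays and, for Eomes, signal near the array median limit the precision. The WT signals of Tbx21 (3.72 to 4.15) and Ifng (3.72 to 4.14) also lay not far above the array medians (3.15 to 3.23).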
